A study of Mus musculus with 9 samples.

Results

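Glucose enters a fat cell through facilitative transporters, is split by glycolysis to pyruvate and lactate, and is diverted at glucose 6-phosphate into the pentose phosphate pathway, which yields NADPH, or into glycogen. Adipocytes draw NADPH and the glycerol backbone of triglyceride from these routes, and their insulin-responsive glucose uptake rests on the transporter GLUT4. The RNA levels of 38 genes of these routes were examined, out of 54532 genes in the deposited tables. The genes were given by symbol, from the transporters of glucose and lactate through the glycolytic, pentose phosphate and glycogen enzymes, with earlier results of these data known. All 38 symbols were found, in 39 table rows, because Aldoa had 2 rows and the one with the larger gene length was used.

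The cells were 3T3-L1, a mouse embryonic fibroblast line that becomes lipid-laden when given adipogenic hormones. Undifferentiated cells were held at confluence for 3 days in high glucose DMEM with bovine calf serum. Differentiated cells were confluent cells moved to a medium with insulin at 10 μg/mL, 3-isobutyl-1-methylxanthine (IBMX, a phosphodiesterase inhibitor) at 0.5 mM, and dexamethasone and the PPARγ agonist rosiglitazone at 1 μM each. Lysfree cells received the same hormones without added lysine. The comparison of Differentiated with Undifferentiated cells asked what the hormonal medium changed, that of Lysfree with Differentiated cells what the lack of lysine changed under the same hormones, and that of Lysfree with Undifferentiated cells what remained of the response. By the study's methods the differentiation medium also used fetal bovine serum and a DMEM made without arginine and lysine, to which amino acids were added back, so serum, basal medium and hormones cannot be told apart between Undifferentiated cells and the other groups. The model is 1 cell line, and whether Undifferentiated cells were kept for the extra time of the hormone treatment is not stated.

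Poly A RNA was sequenced in 3 libraries per group, 9 in all, with 15880144 to 21806693 counted reads each. The labels do not say that the libraries came from separate cultures, so p values measure the spread between these libraries, which may be technical. The spread of a gene was estimated with information shared across genes, so p values and standard errors do not rank genes by their own spread. Leaving out the library Lysfree 1 gave Slc16a1 an adjusted p of 6.9e-104 between Lysfree and Differentiated cells (edgeR), far smaller than with it. The cell state was checked by 10 adipocyte markers, whose summed level was 328 to 413 FPKM, a fragment level scaled for gene length and library size, in Undifferentiated, 7090 to 7445 in Differentiated and 296 to 412 in Lysfree libraries. The Lysfree and Undifferentiated sums differed in their makeup. In Lysfree against Undifferentiated cells 4 of the 10 markers were called lower and 1 higher (edgeR, median log2 fold change -0.89). Of all genes tested there, 8.76% were called lower and 5.52% higher. Adipoq, an adipokine, was lower at -3.74 ± 0.16 and the adipogenic factor Cebpa at -1.43 ± 0.14, while the fatty acid translocase Cd36 was higher by 2.18 ± 0.13. Lpl, lipoprotein lipase, alone was at 145, 147 and 147 FPKM in Undifferentiated, 424, 421 and 426 in Differentiated and 238, 162 and 163 in Lysfree libraries. In Lysfree cells the adipokine Retn had at most 1 count per library. The summed level of 8 fibroblast and preadipocyte markers was 4052 to 4389, 1024 to 1029.6 and 1530 to 1586 FPKM in the same order. Col1a1 and Col1a2 were most of the Undifferentiated sum. In Lysfree against Undifferentiated cells 4 of the 8 markers were called lower and 0 higher, against the same 8.76% and 5.52% of genes. Against the sum, Thy1 was at 80.2, 92.9 and 94.2 FPKM in Lysfree and 68.7, 71.3 and 71.2 in Undifferentiated libraries. The 5 macrophage and leukocyte markers summed to 4.79 to 6.47, 4.66 to 5.20 and 4.67 to 5.88 FPKM, nearly all of it Cd14, which had 117 to 220 counts per library, while Csf1r had 0 to 13 and Ptprc, Adgre1 and Itgam at most 1. The summed endothelial and muscle markers were at most 0.272 and 0.446 FPKM in any library, with Myod1 at 0 and Acta1 at up to 9 counts. In bulk RNA, fewer cells of a type and less RNA per cell cannot be told apart, and the part of the fat cell content in the results given here was not tested. The library Lysfree 1 stood somewhat apart, with a correlation of 0.982 in log2 CPM with each of the other Lysfree libraries, against 0.993 between those. It was above both for 16 members and below both for 19, and values without it are given for the members whose calls it changed and for Rpe and Ugp2.

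Differentiation was accompanied by higher RNA of most members. In Differentiated against Undifferentiated cells, 28 of the 38 were higher by at least 2-fold at an adjusted p under 0.05 (edgeR quasi-likelihood test, Benjamini-Hochberg over all genes tested), which 10.4% of 24402 genes tested were. In contrast, 4 members were lower (Pfkfb2, Eno3, Pygb and Galm), against 11.4% of all genes tested (21.8% for both directions), and 6 were not called (Pfkm, Pfkfb4, Pgls, Rpe, Pygl and Ugp2). The median log2 fold change was 1.81 over the members and 0.02 over all genes tested. In Lysfree against Undifferentiated cells 12 members were higher and 4 were lower (Slc2a4, Pfkm, Ldhb and Pygb), against 5.52% and 8.76% of 23994 genes tested. Of the 12, Gapdh and Eno1 fell under 2-fold there once near-identical copies, described below, were summed. The median there was 0.54 over the members and -0.02 over all genes tested. In Lysfree against Differentiated cells 24 members were lower and 2 were higher (Slc16a1 and Galm), against 10.5% and 8.14% of 24130 genes tested. The median was -1.27 over the members and -0.06 over all genes tested. Without the fold threshold 21 members were higher in Lysfree than in Undifferentiated cells, where 18.0% of all genes tested were, and 8 were lower, where 17.1% were. Between Lysfree and Differentiated cells 4 were then higher, against 19.7% of genes, and 30 lower, against 18.8%. The 3 comparisons share libraries, so their counts are not independent of each other. The 3 libraries of each group did not overlap in FPKM for 37 members between Differentiated and Undifferentiated cells, where 50.9% of all genes tested did not. They did not overlap for 30 members between Lysfree and Undifferentiated cells, against 43.5% of genes, and for 35 members between Lysfree and Differentiated cells, against 46.6%.

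The mean FPKM of Lysfree cells lay between those of Undifferentiated and Differentiated cells for 24 members. For 18 of these the Lysfree libraries overlapped neither group, while for Hk1, Pfkfb2, Eno3, Pgd, Pygl and Ugp2 they overlapped another group. The Lysfree mean lay above both for 3 members, Slc16a1, Rpe and Galm, without overlap. It lay below both for 11 members. Of these, 7 were without overlap, Slc2a4, Pfkm, Pfkfb1, Pfkfb4, Ldhb, Tkt and Pygb. For Slc16a3, Aldoc, Pgls and Rpia the Lysfree libraries overlapped the Undifferentiated ones.

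**Figure D1:**
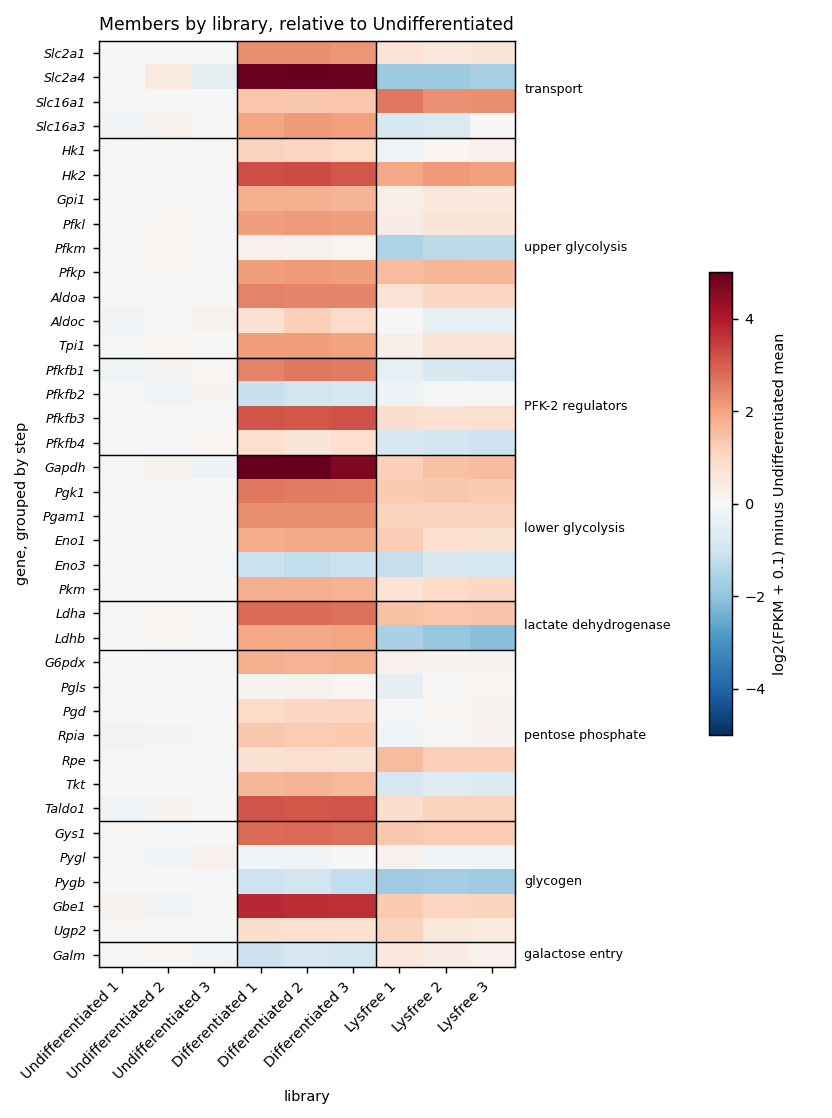
Level of each of the 38 members (vertical axis, grouped by step) in each of the 9 libraries (horizontal axis), coloured by log2(FPKM + 0.1) minus the mean of the 3 Undifferentiated libraries. The Differentiated columns are red for most members, the Lysfree columns are paler for most of these, and Slc2a4, Ldhb, Pfkm, Tkt and Pygb are blue in Lysfree libraries.

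Upstream sequence is shown for Hk2, Pgk1, Ldha and Slc16a1, members of glucose phosphorylation, ATP formation, lactate formation and lactate transport that were called higher in Differentiated and in Lysfree than in Undifferentiated cells. They were picked from the members called higher in both because the letters searched for occur before their start. The letters ACGTG were searched on both strands because they are the core of the hypoxia response element bound by HIF, and because they are also contained in the palindrome CACGTG, the E-box bound by MYC and by ChREBP relatives. Each run holds the 250 bases before a RefSeq start of transcription in the build GRCm38.p6, written 5′ to 3′ on the gene's strand, and capitals mark ACGTG or its reverse complement CACGT. Hk2 lies on the minus strand and the others on the plus strand.
Hk2, chr6:82774455-82774704: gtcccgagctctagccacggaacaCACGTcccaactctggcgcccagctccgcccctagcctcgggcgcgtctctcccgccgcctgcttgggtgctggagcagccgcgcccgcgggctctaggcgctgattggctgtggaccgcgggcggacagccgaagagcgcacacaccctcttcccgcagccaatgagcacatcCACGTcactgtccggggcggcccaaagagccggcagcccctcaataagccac
Ldha, chr7:46845554-46845803: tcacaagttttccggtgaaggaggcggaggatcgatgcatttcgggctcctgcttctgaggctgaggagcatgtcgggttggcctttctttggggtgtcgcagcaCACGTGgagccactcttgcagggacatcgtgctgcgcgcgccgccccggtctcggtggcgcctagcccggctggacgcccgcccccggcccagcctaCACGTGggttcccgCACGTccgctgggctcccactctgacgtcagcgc
Pgk1, chrX:106186850-106187099: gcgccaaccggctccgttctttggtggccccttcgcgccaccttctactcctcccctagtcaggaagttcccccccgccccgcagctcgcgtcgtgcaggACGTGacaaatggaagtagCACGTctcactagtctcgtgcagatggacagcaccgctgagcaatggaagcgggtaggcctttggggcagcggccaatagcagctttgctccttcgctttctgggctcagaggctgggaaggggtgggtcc
Slc16a1, chr3:104638414-104638663: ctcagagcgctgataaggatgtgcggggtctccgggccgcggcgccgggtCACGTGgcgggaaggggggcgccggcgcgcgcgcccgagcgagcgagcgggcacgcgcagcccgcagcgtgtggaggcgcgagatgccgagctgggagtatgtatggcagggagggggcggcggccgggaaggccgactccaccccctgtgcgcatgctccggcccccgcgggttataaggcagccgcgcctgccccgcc
Hk2 and Pgk1 each held 2 places with ACGTG and no CACGTG. The upstream start of Ldha held 3 places, 2 of them CACGTG, the nearest 30 bases from the start, and the window of the other Ldha start held none. Slc16a1 held 1 place before its start, a CACGTG. RefSeq windows of 300 bases, which add 50 bases after the start, were found for 36 of the 38 members in 55 windows. Of these windows 23 held ACGTG, or 41.8%, against 19.6% of all 32851 windows, and 5 held CACGTG, or 9.09%, against 7.15% of all windows. Windows of the same gene can overlap and share a place, as for Aldoa, so they are not separate units. By gene, 19 of the 36 members held ACGTG, and the share by gene over all genes was not computed. A match is a description of letters, and none of the data here measure binding. Of the other members called higher in both groups, Pgam1 also held ACGTG before its start, while Pfkp, Gapdh, Eno1, Taldo1, Gys1 and Gbe1 held none there. The letters were not confined to members called higher. They also stood before a start of Pfkfb2 and Pygb, called lower on differentiation, and of Pfkm, Pygl and Ugp2, not called there. Eno3, called lower, and Pfkfb4, Pgls and Rpe, not called, held none there.

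In Lysfree against Differentiated cells 3 of the 4 transporter genes were called lower and 1 higher, against 10.5% and 8.14% of all genes tested. Slc2a1 (chr4:119108711-119137983, plus strand), which encodes the widely expressed glucose transporter GLUT1, was at 32.6, 32.5 and 32.1 FPKM in Undifferentiated, 161, 162 and 152 in Differentiated and 53.0, 46.1 and 48.6 in Lysfree libraries. The groups did not overlap, with Differentiated libraries highest and Lysfree libraries nearer to the Undifferentiated ones. Slc2a1 rose by 2.26 ± 0.05 on the log2 scale (edgeR, ± standard error; differences carry their sign) on differentiation, where the adjusted p was too small to be represented in R, and was lower at -1.62 ± 0.09 in Lysfree than in Differentiated cells (adjusted p = 2.0e-12). Between Lysfree and Undifferentiated cells the difference was 0.65 ± 0.10 (adjusted p = 1.5e-06), under 2-fold.

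Slc2a4 (chr11:69942539-69948188, minus strand) encodes GLUT4, the transporter that insulin brings to the surface of fat and muscle cells. It had 19, 31 and 9 counts in Undifferentiated, 575, 735 and 603 in Differentiated and 0, 0 and 1 in Lysfree libraries. Lysfree cells thus fell below both other groups, and were under the floor of 3 counts per library used here. Slc2a4 was higher by 5.22 ± 0.15 on the log2 scale in Differentiated than in Undifferentiated cells (edgeR, adjusted p = 1.5e-274). The depth-scaled ratio of Differentiated to Lysfree counts was 1938 (95% interval 347.4 to 76580, exact binomial) and that of Undifferentiated to Lysfree counts was 52.9 (9.13 to 2123). These intervals cover counting error only, and both differences passed the edgeR test (adjusted p = 2.1e-16 and 6.1e-06).

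Slc16a1 (chr3:104638668-104658462, plus strand) encodes the monocarboxylate transporter MCT1, which carries lactate and pyruvate with a proton in either direction. Its level was 13.8, 12.6 and 12.8 FPKM in Undifferentiated, 34.7, 33.2 and 34.6 in Differentiated and 81.3, 63.3 and 65.2 in Lysfree libraries. Every Lysfree library was above every Differentiated library, and these were above every Undifferentiated one, an order that no other transporter followed. Slc16a1 was higher by 1.36 ± 0.06 on differentiation (edgeR, adjusted p = 6.2e-107), by 2.47 ± 0.11 in Lysfree against Undifferentiated cells (adjusted p = 1.2e-18) and by 1.10 ± 0.10 in Lysfree against Differentiated cells (adjusted p = 6.2e-09). The last difference was 0.96 without Lysfree 1, which reached 126.5% of the mean of the other Lysfree libraries, and fell just under 2-fold. Slc16a3, which encodes the lactate exporter MCT4, was at 1.21, 1.53 and 1.33 FPKM in Undifferentiated, 5.65, 6.32 and 5.84 in Differentiated and 0.738, 0.779 and 1.38 in Lysfree libraries. Its Lysfree libraries overlapped the Undifferentiated ones and lay below the Differentiated ones. Slc16a3 was higher by 2.10 ± 0.11 on differentiation (edgeR, adjusted p = 1.3e-84) and lower at -2.55 ± 0.18 in Lysfree than in Differentiated cells (adjusted p = 2.8e-10).

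**Figure D2:**
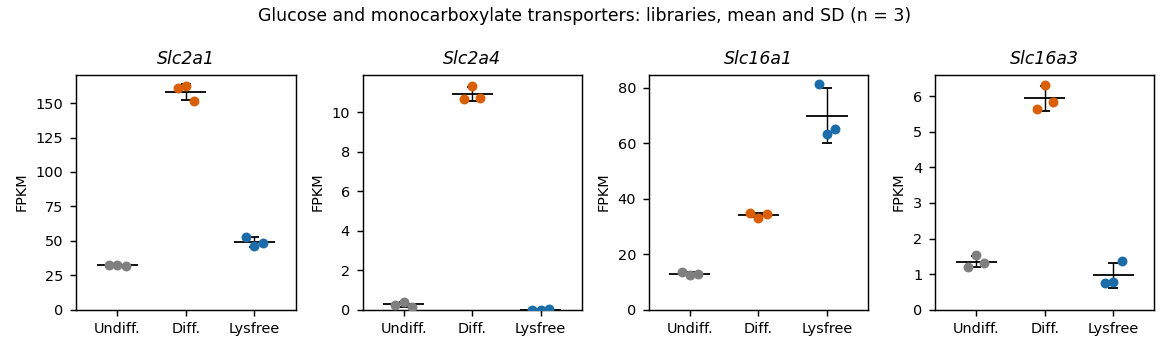
FPKM (vertical axis, each panel with its own scale from 0) of the 4 transporter genes in the 3 groups, with 1 point per library, the mean as a line and the SD as a bar (n = 3). Slc2a1, Slc2a4 and Slc16a3 are highest in Differentiated libraries, Slc2a4 is near 0 in Lysfree ones, and Slc16a1 is highest in Lysfree ones.

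In the upper part of glycolysis 8 of 9 genes were called higher in Differentiated than in Undifferentiated cells, against 10.4% of genes tested. In Lysfree against Differentiated cells 7 of the 9 were called lower, against 10.5% of genes tested. Hexokinases trap glucose as glucose 6-phosphate. Hk2, the inducible form of insulin-sensitive tissues, was at 6.42, 6.11 and 6.20 FPKM in Undifferentiated, 58.4, 60.6 and 54.4 in Differentiated and 24.3, 27.6 and 26.1 in Lysfree libraries. All 3 groups were apart, with Lysfree in the middle. Hk2 was higher by 3.18 ± 0.06 on differentiation, was higher by 2.10 ± 0.11 in Lysfree than in Undifferentiated cells (edgeR, adjusted p = 3.6e-17) and lower at -1.09 ± 0.09 in Lysfree than in Differentiated cells (adjusted p = 2.0e-09). Hk1, the more constant form, was at 14.1, 14.7 and 15.4 FPKM in Undifferentiated, 31.7, 30.7 and 29.5 in Differentiated and 12.6, 15.8 and 16.9 in Lysfree libraries. Its rise on differentiation of 1.03 ± 0.06 (edgeR, adjusted p = 1.4e-76) lay at the 2-fold threshold and fell to 0.9975 with library sizes alone, and Lysfree and Undifferentiated libraries overlapped.

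Gpi1, which isomerises glucose 6-phosphate to fructose 6-phosphate, averaged 36.8 FPKM in Undifferentiated, 123 in Differentiated and 50.6 in Lysfree libraries. It was higher by 1.71 ± 0.05 in Differentiated than in Undifferentiated cells (edgeR, adjusted p = 6.8e-243) and lower at -1.21 ± 0.09 in Lysfree than in Differentiated cells (adjusted p = 1.8e-10). The subunits of phosphofructokinase, which commits sugar to glycolysis, took different courses. Pfkl, the liver-type subunit, was at 23.2, 25.4 and 22.8 FPKM in Undifferentiated, 103, 105 and 101 in Differentiated and 30.7, 36.1 and 36.4 in Lysfree libraries. Pfkp, the platelet-type subunit, was at 4.72, 5.18 and 4.58 FPKM in Undifferentiated, 20.9, 21.2 and 20.9 in Differentiated and 14.6, 15.4 and 15.6 in Lysfree libraries. Pfkm, the muscle-type subunit, was at 44.8, 48.9 and 44.8 FPKM in Undifferentiated, 53.1, 51.6 and 49.0 in Differentiated and 15.6, 17.8 and 18.8 in Lysfree libraries. Pfkl and Pfkp were highest in Differentiated libraries, with Lysfree libraries between, and Pfkm was lowest in Lysfree libraries. Pfkl was lower at -1.51 ± 0.09 in Lysfree than in Differentiated cells (edgeR, adjusted p = 1.0e-11), while the difference for Pfkp was -0.40 ± 0.08 (adjusted p = 4.9e-04) and under 2-fold. Pfkp was higher by 1.70 ± 0.10 in Lysfree than in Undifferentiated cells (edgeR, adjusted p = 2.7e-15), where Pfkm was lower at -1.36 ± 0.11 (adjusted p = 1.6e-12). On differentiation Pfkm differed by 0.12 ± 0.06 (edgeR, adjusted p = 0.054). Of the exon bases of Pfkm 10.7% are shared with Senp1 on the opposite strand and a neighbour on its own, and the strand setting of the counting is not given in the sources used here.

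Aldoa, the aldolase of muscle and most tissues, had the highest mean FPKM of all members in every group, with Gapdh and Eno1 ranked by their own rows without copies. It was at 317, 312 and 324 FPKM in Undifferentiated, 1779.8, 1729 and 1742 in Differentiated and 524, 646 and 643 in Lysfree libraries. Every group was apart from the others, with Lysfree in the middle. Aldoa was higher by 2.44 ± 0.04 on differentiation and lower at -1.47 ± 0.08 in Lysfree than in Differentiated cells (edgeR, adjusted p = 3.9e-12), and its difference of 0.98 ± 0.09 between Lysfree and Undifferentiated cells was just under 2-fold, at 1.04 without Lysfree 1. The shorter Aldoa row held 78, 73 and 74 counts in Undifferentiated, 201, 268 and 212 in Differentiated and 259, 434 and 451 in Lysfree libraries, against 15087 to 93738 for the row used. It differed by 0.65 between Lysfree and Differentiated cells, the opposite sign to the row used. Aldoc, the brain-type aldolase, had 3 to 20 counts in any library. Its log2 difference on differentiation was 1.57 ± 0.53 (edgeR, adjusted p = 0.0073), which was not called without Differentiated 2 (1.40, adjusted p = 0.060). Tpi1, which interconverts the triose phosphates, averaged 178 FPKM in Undifferentiated, 739 in Differentiated and 264 in Lysfree libraries, higher by 2.02 ± 0.05 on differentiation and lower at -1.42 ± 0.09 in Lysfree than in Differentiated cells (edgeR, adjusted p = 4.3e-11).

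The 4 genes of the bifunctional enzymes that make and remove fructose 2,6-bisphosphate, the activator of phosphofructokinase, did not all change alike. Pfkfb1 and Pfkfb4 shared the order Differentiated, Undifferentiated, Lysfree, from high to low. Pfkfb3, whose product acts mainly as a kinase and drives glycolysis, was at 2.56, 2.36 and 2.36 FPKM in Undifferentiated, 22.4, 21.9 and 22.6 in Differentiated and 4.60, 4.14 and 4.40 in Lysfree libraries. Differentiated libraries stood far above the others, and Lysfree libraries were above Undifferentiated ones without overlap. Pfkfb3 was higher by 3.17 ± 0.07 on differentiation and lower at -2.28 ± 0.09 in Lysfree than in Differentiated cells (edgeR, adjusted p = 3.8e-14). Pfkfb1, the form of liver and muscle, was at 0.619, 0.817 and 0.808 FPKM in Undifferentiated, 4.60, 5.08 and 5.05 in Differentiated and 0.538, 0.392 and 0.372 in Lysfree libraries. It was higher by 2.69 ± 0.14 on differentiation (edgeR, adjusted p = 2.2e-79) and lower at -3.44 ± 0.18 in Lysfree than in Differentiated cells (edgeR, adjusted p = 1.8e-12), with Lysfree below Undifferentiated libraries. Pfkfb4 was at 2.08, 2.17 and 2.41 FPKM in Undifferentiated, 4.06, 3.40 and 4.03 in Differentiated and 1.26, 1.11 and 1.01 in Lysfree libraries. Its Lysfree libraries were the lowest, at -1.70 ± 0.15 against Differentiated cells (edgeR, adjusted p = 8.6e-09), and at -0.93 ± 0.18 against Undifferentiated cells, which became -1.04 and past 2-fold without Lysfree 1. Pfkfb2, the heart-type form, ran the other way, at 1.69, 1.49 and 1.83 FPKM in Undifferentiated, 0.722, 0.836 and 0.862 in Differentiated and 1.40, 1.53 and 1.58 in Lysfree libraries. Differentiated libraries were lowest, and Lysfree libraries overlapped Undifferentiated ones. Its fall on differentiation, -1.07 ± 0.14 (edgeR, adjusted p = 1.5e-13), was within 2-fold in limma on log2(FPKM + 0.1), at -0.96, and 19.5% of its exon bases are shared with Yod1 and Gm29427.

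ATP and pyruvate are made in the lower part of glycolysis. Of its 6 genes 5 were called higher in Differentiated than in Undifferentiated cells, against 10.4% of genes tested. In Lysfree cells 4 were called higher than in Undifferentiated cells, against 5.52%, and 3 lower than in Differentiated cells, against 10.5%. Of these 4, Gapdh and Eno1 fell under 2-fold, at 0.96 each, once near-identical copies, described below, were summed. Pgk1, phosphoglycerate kinase, the first ATP-yielding step, was at 227, 238 and 239 FPKM in Undifferentiated, 1477, 1419.9 and 1398 in Differentiated and 576, 601 and 579 in Lysfree libraries. Lysfree libraries lay between the others without overlap. Pgk1 was higher by 2.58 ± 0.05 on differentiation, higher by 1.37 ± 0.09 in Lysfree than in Undifferentiated cells (edgeR, adjusted p = 3.4e-14) and lower at -1.23 ± 0.07 in Lysfree than in Differentiated cells (adjusted p = 6.0e-12). Pgam1, phosphoglycerate mutase, was at 164, 157 and 163 FPKM in Undifferentiated, 808, 808 and 808 in Differentiated and 353, 345 and 355 in Lysfree libraries. It was higher by 1.17 ± 0.09 in Lysfree than in Undifferentiated cells (edgeR, adjusted p = 2.7e-12) and lower at -1.14 ± 0.07 than in Differentiated cells (adjusted p = 4.2e-11). Pkm, pyruvate kinase of muscle and proliferating cells, was at 190.4, 204 and 194 FPKM in Undifferentiated, 681, 666 and 658 in Differentiated and 316, 393 and 401 in Lysfree libraries. Its rise on differentiation was 1.74 ± 0.04, and its difference between Lysfree and Differentiated cells, -0.79 ± 0.08 (edgeR, adjusted p = 1.2e-07), was under 2-fold. Its difference of 0.96 ± 0.10 between Lysfree and Undifferentiated cells was 1.04 without Lysfree 1. The M1 and M2 splice forms of Pkm are 1 row in these tables and were not analysed here, and 15.3% of its exon bases are shared with Gm49759.

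Eno1, the ubiquitous enolase, was at 94.0, 89.6 and 94.8 FPKM in Undifferentiated, 339, 343 and 342 in Differentiated and 218, 164 and 159 in Lysfree libraries. Lysfree 1 stood above the other Lysfree libraries at 134.6% of their mean, and the groups did not overlap. Eno1 was higher by 1.004 ± 0.10 in Lysfree than in Undifferentiated cells (edgeR, adjusted p = 9.5e-10), a value at the 2-fold threshold that was 0.82 without Lysfree 1. Its difference between Lysfree and Differentiated cells was -0.86 ± 0.09 (edgeR, adjusted p = 1.7e-07), and -1.03 without Lysfree 1. Eno3, the muscle enolase, ran against the other genes of this stretch, at 19.9, 21.3 and 19.7 FPKM in Undifferentiated, 9.48, 8.61 and 9.51 in Differentiated and 9.06, 11.9 and 11.1 in Lysfree libraries. Undifferentiated libraries were highest, and Lysfree and Differentiated libraries overlapped. Eno3 was lower at -1.17 ± 0.09 on differentiation (edgeR, adjusted p = 3.3e-36), and its difference of -0.88 ± 0.13 between Lysfree and Undifferentiated cells was under 2-fold (adjusted p = 1.6e-06).

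Gapdh (chr6:125161715-125166467, minus strand), glyceraldehyde 3-phosphate dehydrogenase and a common reference gene in PCR, had the largest fold rise on differentiation in its own row, but that row held the minor part of the counts of its sequence. The row had 267, 299 and 162 counts in Undifferentiated, 9272, 16918 and 5029 in Differentiated and 491, 638 and 694 in Lysfree libraries. The Differentiated libraries lay above all others and were far apart from each other. A search of GENCODE vM21 transcripts found 93 rows outside the Gapdh locus with at least 95% identity to a Gapdh transcript over at least 200 bases, 88 of them with counts, and these took 61.5% to 95.7% of the summed counts in each library. The pseudogene Gm13394, 99.9% identical over 1000 bases, alone held 3236 to 24965 counts per library. Gapdh and its copies together had 4710, 4767 and 3732 counts in Undifferentiated, 32432, 43993 and 28723 in Differentiated and 5092, 9395 and 9258 in Lysfree libraries. Differentiated libraries remained far above the others in the sum. For the row alone the log2 differences were 5.61 ± 0.07 on differentiation, 1.46 ± 0.14 in Lysfree against Undifferentiated cells and -4.16 ± 0.25 in Lysfree against Differentiated cells (edgeR). For the sum they were 3.20 ± 0.05, 0.96 ± 0.13 and -2.25 ± 0.15, so the second was no longer 2-fold. These standard errors share spread across genes and do not show how far apart the Differentiated libraries were. Leaving out 1 library, the rise of the row on differentiation ranged from 5.19 to 5.92. For Eno1, 4 such copies held 36.2% to 44.0% of the summed counts, mainly in Eno1b and Gm4735, and the sum gave 1.91, 0.96 and -0.95. For the other members with such a copy these held at most 8.0% of the counts, which was for Ldhb.

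**Figure D3:**
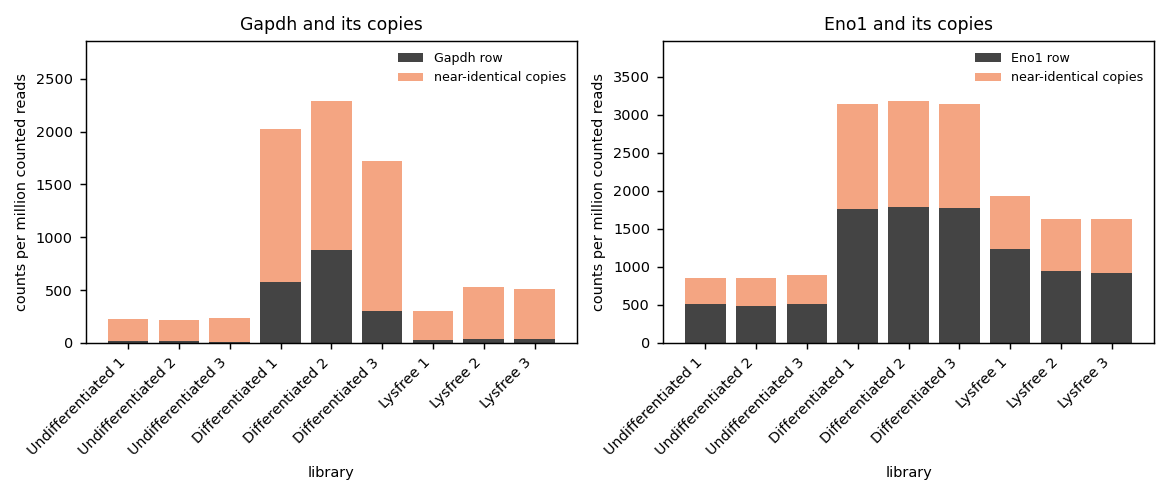
Counts scaled to library size as CPM (vertical axis, from 0) in each of the 9 libraries, split into the row of Gapdh or Eno1 (dark) and the rows of near-identical copies (light). For Gapdh the copies are the larger part of every bar, and the Differentiated bars are the tallest for both genes.

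Lactate dehydrogenase interconverts pyruvate and lactate, and its 2 subunit genes parted in Lysfree cells. Ldha, the muscle-type subunit, was at 138, 155 and 144 FPKM in Undifferentiated, 1006, 1012 and 973 in Differentiated and 407, 380.2 and 386 in Lysfree libraries. Lysfree libraries were above Undifferentiated and below Differentiated ones. Ldha was higher by 2.75 ± 0.05 on differentiation, higher by 1.47 ± 0.09 in Lysfree than in Undifferentiated cells (edgeR, adjusted p = 8.1e-15) and lower at -1.29 ± 0.07 in Lysfree than in Differentiated cells (adjusted p = 2.5e-12). Ldhb (chr6:142490249-142507957, minus strand), the heart-type subunit, was at 35.2, 38.9 and 33.8 FPKM in Undifferentiated, 137, 133 and 141 in Differentiated and 11.7, 9.55 and 8.30 in Lysfree libraries. Every Lysfree library was below every Undifferentiated one. Ldhb was higher by 1.90 ± 0.06 on differentiation (edgeR, adjusted p = 5.2e-220), lower at -1.82 ± 0.13 in Lysfree than in Undifferentiated cells (adjusted p = 2.8e-13) and lower at -3.73 ± 0.12 in Lysfree than in Differentiated cells (adjusted p = 5.5e-16).

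The balance between isozymes was described as the share of one gene in the summed FPKM of its family, which is scaled for gene length. There were 14 such shares in 9 families, and for 3 libraries against 3 the smallest p of an exact two-sided permutation test is 0.1, so no share could pass 0.05. Without overlap between libraries were 13 shares between Differentiated and Undifferentiated cells, 13 between Lysfree and Undifferentiated cells, and 11 between Lysfree and Differentiated cells. The adjusted p values of these were at least 0.108, 0.108 and 0.127 (exact permutation tests, Benjamini-Hochberg over 14). Hk2 made up 29.8% ± 1.37 of hexokinase FPKM in Undifferentiated, 65.3% ± 0.864 in Differentiated and 63.4% ± 2.64 in Lysfree cells. The hexokinase shares of Differentiated and Lysfree libraries overlapped. Pfkm made up 61.7% ± 0.296 of phosphofructokinase FPKM in Undifferentiated, 29.3% ± 0.712 in Differentiated and 25.9% ± 0.530 in Lysfree cells. Pfkl went from 31.8% ± 0.202 to 58.7% ± 0.528 and 51.3% ± 0.798, and Pfkp from 6.46% ± 0.0943 to 12.01% ± 0.224 and 22.8% ± 1.08. By FPKM the muscle-type subunit was thus the main one before differentiation and the liver-type subunit after it, with or without lysine. Lysfree cells had the largest platelet-type share. The lead of Pfkm before differentiation rests on gene length, 6675 bases for Pfkl and 3340 for Pfkm. By counts Pfkl led there too, with 9443 against 9160 for Pfkm, and in Lysfree cells it had 12905 against 11459 for Pfkp.

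Pfkfb3 made up 34.4% ± 2.51 of its family in Undifferentiated, 70.0% ± 0.552 in Differentiated and 58.8% ± 1.03 in Lysfree cells. Pfkfb2 went from 23.6% ± 1.60 to 2.53% ± 0.230 on differentiation and was 20.2% ± 2.00 in Lysfree cells, near its starting share. Pfkfb4 went from 31.4% ± 1.32 to 12.02% ± 0.976 and 15.1% ± 1.23. Ldhb made up 19.8% ± 0.691 of lactate dehydrogenase FPKM in Undifferentiated, 12.1% ± 0.542 in Differentiated and 2.45% ± 0.350 in Lysfree cells. The size of the Ldhb share rests on gene length, 3310 bases for Ldha and 1570 for Ldhb. By counts Ldhb had 1177, 1339 and 849 against 9749, 11223 and 7627 for Ldha in Undifferentiated libraries, a smaller part. Eno3 went from 17.99% ± 1.10 of Eno1 and Eno3 to 2.62% ± 0.154 and 5.78% ± 1.54. The size of these shares rests on gene length, 5379 bases for Eno1 and 1739 for Eno3, and on the own row of Eno1. By counts Eno3 had 2102 against 29509 for Eno1 in Undifferentiated cells, a smaller part. In Differentiated cells these counts were 801 against 92285, and in Lysfree cells 1049 against 54012. With the copies of Eno1 summed, the change of the Eno3 share on differentiation was -9.80 in place of -15.4 percentage points, and that between Lysfree and Undifferentiated cells -7.81 in place of -12.2. Slc16a3 made up 9.43% ± 1.38 of both monocarboxylate transporters in Undifferentiated, 14.8% ± 1.04 in Differentiated and 1.39% ± 0.603 in Lysfree cells. Its share was lowest in Lysfree libraries. Slc2a4 made up 0.840% ± 0.371, 6.46% ± 0.211 and 0.0101% ± 0.0176 of both glucose transporters in the same order. Other forms of these steps were outside the shares. Hk3 and Slc2a3 had at most 2 counts and Pklr and Ldhc 0 in any library. Eno2, the neuronal enolase, was expressed, at 7.29, 6.79 and 6.66 FPKM in Undifferentiated, 17.7, 15.7 and 15.5 in Differentiated and 8.54, 10.5 and 10.2 in Lysfree libraries, above Eno3 in Differentiated libraries. Pgam2, the muscle mutase, was at 10.8, 10.2 and 11.8 FPKM in Undifferentiated, 14.8, 13.7 and 11.2 in Differentiated and 6.44, 8.43 and 8.04 in Lysfree libraries.

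**Figure D4:**
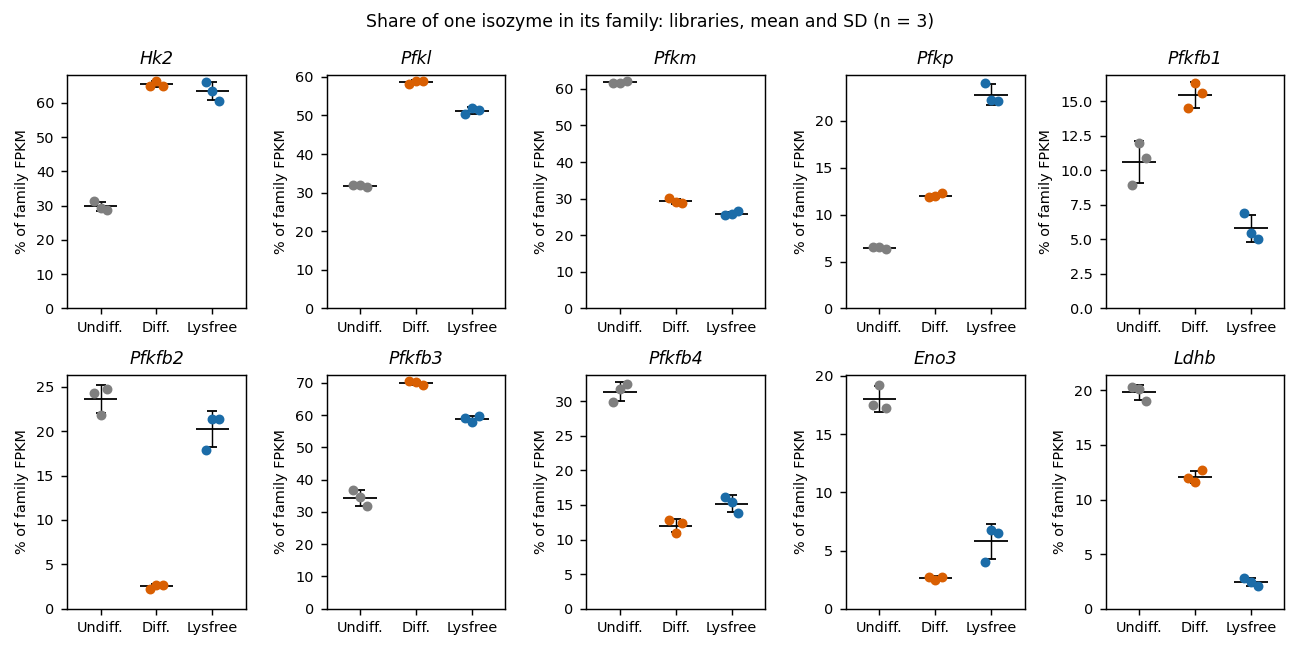
Share of 1 isozyme in the summed FPKM of its family (vertical axis, percent, each panel with its own scale from 0) for 10 genes in the 3 groups, with 1 point per library, the mean as a line and the SD as a bar (n = 3). The Pfkm, Pfkfb4, Eno3 and Ldhb shares are highest in Undifferentiated libraries, those of Hk2, Pfkl and Pfkfb3 are low there, and those of Pfkfb2 are low in Differentiated ones alone.

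In the pentose phosphate pathway 5 of 7 genes were called higher in Differentiated than in Undifferentiated cells, against 10.4% of genes tested. In Lysfree against Differentiated cells 4 of the 7 were called lower, against 10.5% of genes tested. G6pdx, the first and NADPH-yielding step, was at 26.3, 25.1 and 27.4 FPKM in Undifferentiated, 93.6, 88.2 and 92.3 in Differentiated and 30.3, 28.8 and 29.6 in Lysfree libraries. Lysfree libraries were close above Undifferentiated ones and far below Differentiated ones. G6pdx was higher by 1.77 ± 0.06 on differentiation (edgeR, adjusted p = 7.6e-210) and lower at -1.56 ± 0.09 in Lysfree than in Differentiated cells (adjusted p = 3.7e-12), and the difference between Lysfree and Undifferentiated cells, 0.22 ± 0.10, did not pass (adjusted p = 0.097). Ikbkg on the opposite strand shares 13.6% of its exon bases. Pgd, the other NADPH-yielding dehydrogenase of the oxidative branch, averaged 24.1 FPKM in Undifferentiated, 49.4 in Differentiated and 25.4 in Lysfree libraries. Its rise of 1.01 ± 0.05 (edgeR, adjusted p = 2.8e-76) lay at the 2-fold threshold and was 0.97 with library sizes alone, and Lysfree and Undifferentiated libraries overlapped. Pgls, the lactonase between these steps, averaged 21.6 FPKM in Undifferentiated, 23.8 in Differentiated and 20.4 in Lysfree libraries and was called in none of the comparisons, and 20.6% of its exon bases are shared with Fam129c.

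The non-oxidative branch, which returns pentoses to glycolysis, was uneven. Taldo1, transaldolase, was at 28.0, 34.3 and 32.2 FPKM in Undifferentiated, 279.8, 270.5 and 278 in Differentiated and 58.1, 68.5 and 68.4 in Lysfree libraries. All groups were apart, and Lysfree libraries were nearer to Undifferentiated than to Differentiated ones. Taldo1 was higher by 3.10 ± 0.06 on differentiation, higher by 1.09 ± 0.11 in Lysfree than in Undifferentiated cells (edgeR, adjusted p = 4.3e-10) and lower at -2.02 ± 0.09 in Lysfree than in Differentiated cells (adjusted p = 1.5e-13). Tkt, transketolase, was at 22.5, 22.7 and 22.6 FPKM in Undifferentiated, 72.3, 73.0 and 69.0 in Differentiated and 12.7, 14.5 and 14.1 in Lysfree libraries. Lysfree libraries were below both other groups. Tkt was lower at -2.31 ± 0.09 in Lysfree than in Differentiated cells (edgeR, adjusted p = 1.5e-14) and at -0.66 ± 0.10 in Lysfree than in Undifferentiated cells (adjusted p = 1.4e-06), the latter under 2-fold. Rpia, ribose 5-phosphate isomerase, averaged 5.66 FPKM in Undifferentiated, 14.1 in Differentiated and 5.61 in Lysfree libraries and was lower at -1.26 ± 0.11 in Lysfree than in Differentiated cells (edgeR, adjusted p = 2.7e-09). Rpe, ribulose 5-phosphate epimerase, was at 16, 14.9 and 15.6 FPKM in Undifferentiated, 26.2, 26.8 and 26.3 in Differentiated and 46.0, 35.5 and 35.7 in Lysfree libraries. As for Slc16a1, every Lysfree library was above every Differentiated one. Rpe was higher by 1.38 ± 0.11 in Lysfree than in Undifferentiated cells (edgeR, adjusted p = 3.3e-12) and by 0.63 ± 0.10 in Lysfree than in Differentiated cells (adjusted p = 3.5e-05), under 2-fold. Without Lysfree 1 these were 1.22 and 0.48. Kansl1l on the opposite strand shares 17.9% of its exon bases.

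Of the 5 glycogen genes, 2 were called higher on differentiation, Gys1 and Gbe1, against 10.4% of all genes tested. Both are of synthesis, while Ugp2, which makes the donor for glycogen, was not called. Gys1, the muscle-type glycogen synthase, was at 19.0, 17.5 and 18.3 FPKM in Undifferentiated, 127, 130.2 and 125 in Differentiated and 47.0, 43.6 and 44.0 in Lysfree libraries. Lysfree libraries lay between the other groups without overlap. Gys1 was higher by 2.78 ± 0.06 on differentiation, higher by 1.35 ± 0.10 in Lysfree than in Undifferentiated cells (edgeR, adjusted p = 3.7e-13) and lower at -1.44 ± 0.08 in Lysfree than in Differentiated cells (adjusted p = 5.3e-12). Gbe1, the branching enzyme, was at 2.94, 2.34 and 2.57 FPKM in Undifferentiated, 36.5, 35.1 and 34.3 in Differentiated and 6.54, 5.58 and 5.82 in Lysfree libraries. The groups were in the same order as for Gys1. Gbe1 was higher by 3.73 ± 0.07 on differentiation, higher by 1.24 ± 0.14 in Lysfree than in Undifferentiated cells (edgeR, adjusted p = 3.6e-09) and lower at -2.498 ± 0.10 in Lysfree than in Differentiated cells (adjusted p = 1.5e-14). In limma on log2(FPKM + 1) its difference between Lysfree and Undifferentiated cells was 0.95.

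Ugp2, which makes UDP-glucose, the donor for glycogen, was at 23.7, 22.7 and 22.3 FPKM in Undifferentiated, 41.8, 40.0 and 39.0 in Differentiated and 49.4, 33.2 and 32.1 in Lysfree libraries. Lysfree 1 was above every other library, at 151.2% of the mean of the other Lysfree libraries, which lay below the Differentiated ones. Its differences of 0.79 ± 0.06 on differentiation and 0.79 ± 0.12 in Lysfree against Undifferentiated cells (edgeR, adjusted p = 1.5e-36 and 2.6e-06) were under 2-fold, and the latter was 0.53 without Lysfree 1. Pygb, the brain-type glycogen phosphorylase, which breaks glycogen down, was at 51.4, 49.3 and 50.4 FPKM in Undifferentiated, 24.5, 25.8 and 21.7 in Differentiated and 14.8, 14.9 and 14.6 in Lysfree libraries. Undifferentiated libraries were highest and Lysfree libraries lowest. Pygb was lower at -1.10 ± 0.06 on differentiation (edgeR, adjusted p = 1.5e-84) and at -1.72 ± 0.10 in Lysfree than in Undifferentiated cells (adjusted p = 9.2e-16), and its difference of -0.64 ± 0.10 between Lysfree and Differentiated cells was under 2-fold. Pygl, the liver form, had at most 3 counts in any library, the floor used here, so no difference could be detected at this depth. Galm, which converts the anomers of galactose and glucose, was at 8.45, 8.54 and 7.29 FPKM in Undifferentiated, 3.79, 4.49 and 4.08 in Differentiated and 11.8, 10.3 and 9.45 in Lysfree libraries. Differentiated libraries were lowest and Lysfree libraries highest. Galm was higher by 1.41 ± 0.14 in Lysfree than in Differentiated cells (edgeR, adjusted p = 2.3e-08), and its fall on differentiation, -1.003 ± 0.11 (adjusted p = 8.2e-19), lay at the 2-fold threshold.

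**Figure D5:**
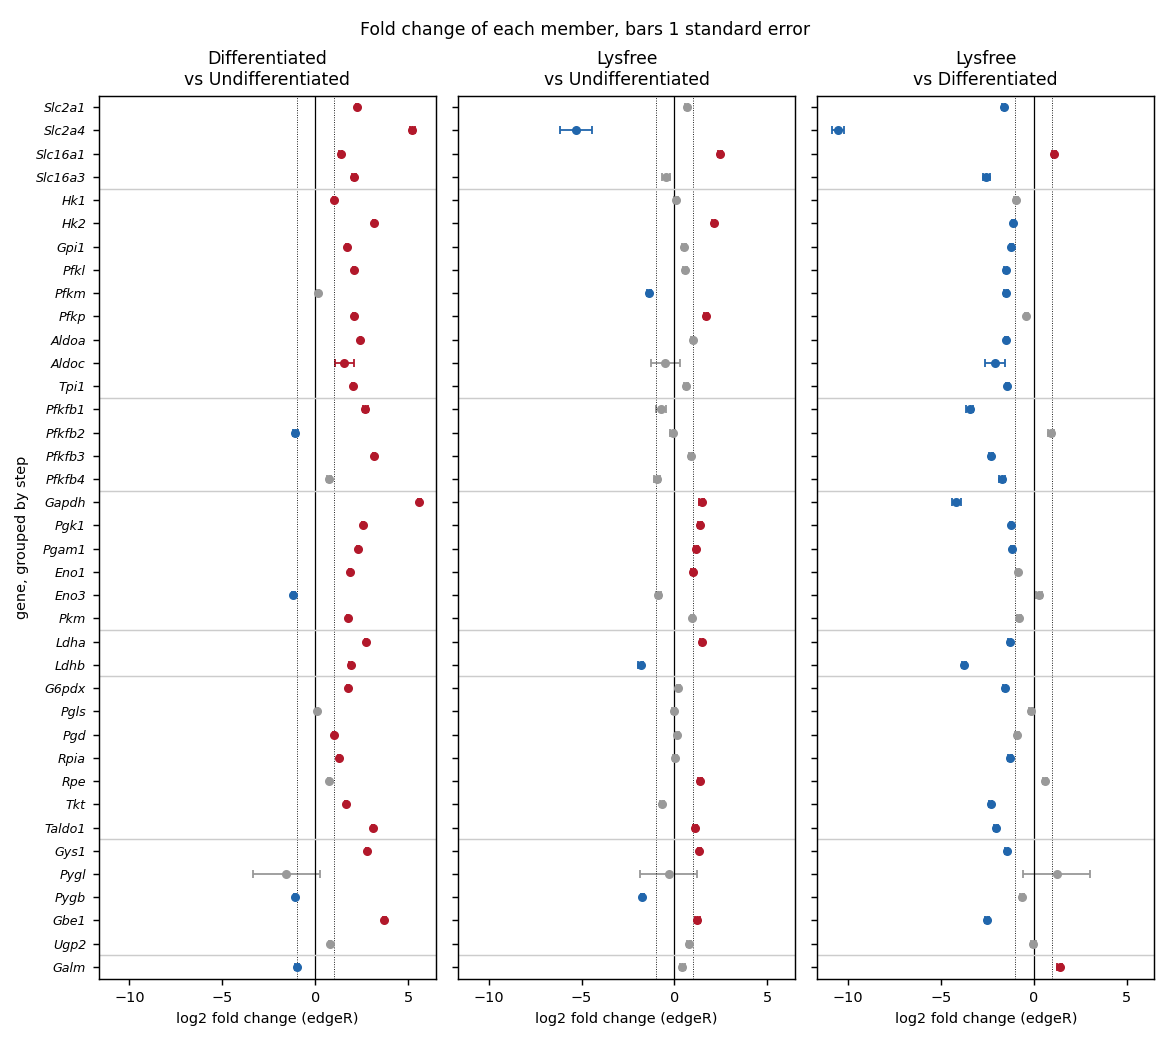
Log2 fold change of each member (horizontal axis, edgeR, bars 1 standard error) in the 3 comparisons, with genes on the vertical axis grouped by step, red for called higher, blue for called lower, grey for not called, and dotted lines at 2-fold. Most points are red in Differentiated against Undifferentiated cells and blue in Lysfree against Differentiated cells, with Slc16a1 and Galm red in the latter.

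Summed over the 17 genes of the glycolytic steps and lactate dehydrogenase, the level was 1518 ± 33.8 FPKM (SD, n = 3) in Undifferentiated, 7415 ± 155.5 in Differentiated and 2933 ± 125.8 in Lysfree cells, with Gapdh and Eno1 by their own rows. The summed transporters were at 47.0 ± 0.703, 209 ± 5.65 and 120.2 ± 13.1 FPKM, where Slc16a1 was the larger part in Lysfree cells. The bifunctional PFKFB genes summed to 7.07 ± 0.304, 31.8 ± 0.659 and 7.44 ± 0.318 FPKM, and the Lysfree and Undifferentiated libraries overlapped. The pentose phosphate genes summed to 147 ± 3.18, 553 ± 6.62 and 199 ± 6.58 FPKM, and the glycogen genes to 94.1 ± 2.66, 227 ± 6.20 and 104 ± 12.1 FPKM. The median log2 fold change between Lysfree and Differentiated cells was -2.09 over the 4 transporters, -1.42 over the upper 9 glycolytic genes, -1.99 over the 4 PFKFB genes, -0.999 over the lower 6, -1.26 over the 7 pentose phosphate genes and -0.64 over the 5 glycogen genes.

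Genes of these routes outside the 38 were counted in the same way. Of 103 genes in 7 lists of further glycolytic, gluconeogenic, transporter, pentose phosphate, glycogen, galactose and fructose, regulatory and GLUT4 vesicle genes, 90 were tested on differentiation, of which 24 were called higher and 8 lower, where 10.4% and 11.4% of all genes tested were. Between Lysfree and Undifferentiated cells 7 of 90 were called higher and 12 lower, against 5.52% and 8.76%. Between Lysfree and Differentiated cells 8 of 89 were called higher and 23 lower, against 8.14% and 10.5%. Their median log2 fold changes were 0.28, -0.10 and -0.52 in the 3 comparisons. The largest rises on differentiation were Pck1, the gluconeogenic and glyceroneogenic enzyme, by 3.72 ± 0.14 (edgeR, adjusted p = 3.5e-146), and the HIF prolyl hydroxylase Egln3, by 3.44 ± 0.06. The largest falls were the inositol transporter Slc2a13, at -3.99 ± 0.50 (edgeR, adjusted p = 9.1e-15), and the lysosomal glucosidase Gaa, at -2.79 ± 0.05. In Lysfree against Undifferentiated cells the transcription factor Myc was higher by 2.499 ± 0.11 (edgeR, adjusted p = 6.5e-19) and the fructose bisphosphatase Tigar by 1.97 ± 0.14 (adjusted p = 2.3e-13). Pck1 was lower there at -4.05 ± 0.52 and Epas1, which encodes HIF-2α, at -3.59 ± 0.20 (edgeR, adjusted p = 7.3e-08 and 7.6e-16). In Lysfree against Differentiated cells Emb, an accessory protein of monocarboxylate transporters, was higher by 1.75 ± 0.16 and Arrdc4, an α-arrestin related to Txnip, by 1.70 ± 0.11 (edgeR, adjusted p = 6.8e-09 and 4.1e-11). Pck1 was lower at -7.76 ± 0.27 and Mlxipl, which encodes the glucose-sensing factor ChREBP, at -4.82 ± 0.42 (edgeR, adjusted p = 2.7e-15 and 5.7e-09). Pck1 had 1, 1 and 4 counts and Mlxipl 1, 1 and 5 counts in Lysfree libraries, and Slc2a13 had 4, 2 and 0 counts in Differentiated libraries, so these fitted differences rest on few counts.

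The regulators had their own levels beside those of the enzymes. Myc was at 11.6, 11.3 and 10.8 FPKM in Undifferentiated, 62.5, 63.1 and 66.0 in Differentiated and 57.0, 62.4 and 65.0 in Lysfree libraries, with Lysfree and Differentiated libraries overlapping above the Undifferentiated ones. Egln3 was at 18.8, 18.8 and 19.7 FPKM in Undifferentiated, 215, 215 and 202 in Differentiated and 28.9, 26.1 and 25.4 in Lysfree libraries, with Lysfree libraries nearer to the Undifferentiated ones. Hif1a and Sort1 were singled out after their values were seen, for the oxygen-responsive factor and the sorting receptor of GLUT4 vesicles. Hif1a was at 42.1, 37.3 and 39.0 FPKM in Undifferentiated, 31.9, 30.6 and 32.2 in Differentiated and 104, 70.2 and 69.1 in Lysfree libraries, with every Lysfree library above the others and Lysfree 1 the highest. Sort1 was at 3.58, 4.01 and 3.77 FPKM in Undifferentiated, 24.9, 25.6 and 23.9 in Differentiated and 0.917, 0.866 and 0.790 in Lysfree libraries, and like Slc2a4 it was lowest in Lysfree libraries, at -4.79 ± 0.11 against Differentiated cells (edgeR, adjusted p = 5.0e-18). Of its list of 9 GLUT4 vesicle genes, 3 were called lower in Lysfree than in Differentiated cells, where 10.5% of all genes tested were. Only 1 of the 9 was called lower in Lysfree than in Undifferentiated cells, against 8.76% of genes, and 0 were called higher in either comparison.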

How the data were processed

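RNA of 3T3-L1 cells was sequenced in 9 libraries, 3 each of Undifferentiated, Differentiated and Lysfree cells. The authors deposited 2 tables, of read counts and of FPKM per gene. Per the labels' processing notes, reads were aligned to mm10 with HISAT2 2.0.5, and the deposited counts were made with featureCounts 1.5.0-p3. The deposited FPKM values were made by the authors from these reads and scale fragments by gene length and library size. The strand setting and the annotation release are not given in the sources used here.

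Counts were tested for each pair of groups with edgeR 4.0.16 (quasi-likelihood, TMM, genes with a count in any of the 6 libraries, R 4.3.3). Adjusted p values are Benjamini-Hochberg values over all genes tested. A gene was called at 2-fold or more and an adjusted p under 0.05, the thresholds of the study, which used DESeq2. Alternatives were DESeq2 1.42.0, limma 3.58.1 on log2(FPKM + 1) and log2(FPKM + 0.1), filters, scalings, a replicate block and leaving out each library. Standard errors were taken from the fold change and the F statistic, whose spread is estimated with information shared across genes. Depth was 15880144 to 21806693 counts per library, and intervals and the floor of 3 counts cover counting error only. Copies were found with BLAST 2.17.0, and the sum with copies was an alternative chosen after seeing the data. Promoters came from RefSeq (GRCm38.p6), in which 2 members, Slc2a4 and Galm, had no entry.

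All members may be named. Of the other pathway genes, the 2 largest rises and falls per comparison were named among called genes with a mean of at least 1 CPM and no overlap between groups, and paralogues were named for their level. The members and lists were chosen with earlier results of these data known. Same-numbered libraries correlated between -0.085 and 0.115 in their deviations, so no pairing by replicate number was seen. With 3 libraries per group this cannot exclude shared cultures or batches.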

Additional observations from a re-analysis of the deposited data

How the results depend on the processing

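Of 1819 alternative values of single members, 1755 kept their direction and their side of the threshold, 36 fell under it, 11 passed it and 17 changed sign. The cause of these changes was not tested, except where fewer libraries or no fold threshold were used by construction. With limma, on FPKM + 1 as on FPKM + 0.1, 2 members were called lower on differentiation in place of 4. Leaving out 1 library gave 2 to 4 there, and 1 to 3 members higher in Lysfree than in Differentiated cells, with 1 without Lysfree 1. Without a fold threshold 21 members were higher and 8 lower in Lysfree against Undifferentiated cells, and 4 higher in Lysfree against Differentiated cells. Over all genes, limma on FPKM + 1 and the absence of a fold threshold gave 1450 and 5605 higher and 1276 and 5655 lower on differentiation, 557 and 4316 higher and 917 and 4112 lower in Lysfree against Undifferentiated cells, and 823 and 4749 higher and 1375 and 4531 lower in Lysfree against Differentiated cells.

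The signs that changed were of differences near 0, of Pygl at the floor of detection, or of the shorter Aldoa row, at 0.65 between Lysfree and Differentiated cells. Rpia in Lysfree against Undifferentiated cells was -0.0013 with filterByExpr, -0.0121 with a mean of at least 1 CPM, -0.009 and -0.0102 with limma, and -0.0428 to 0.1182 leaving out 1 library. In the same comparison Hk1 ranged from -0.0063 to 0.1773, Pgls from -0.1298 to 0.0892 and Pygl from -3.58 to 1.08 leaving out 1 library. In Lysfree against Differentiated cells Pygl ranged from -1.93 to 3.16 and Ugp2 from -0.2548 to 0.0973, and Ugp2 was 0.0615 with library sizes alone. The Pygb share of Pygl and Pygb changed on differentiation by -0.9795 percentage points with all paralogues. Leaving out 1 library its change ranged from -0.007189 to 0.02237 on differentiation, from -0.06112 to 0.02237 in Lysfree against Undifferentiated cells and from -0.06968 to 0.01381 in Lysfree against Differentiated cells.

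With the replicate number as a block, 28 members were higher and 4 lower on differentiation, 11 higher and 4 lower in Lysfree against Undifferentiated cells, and 2 higher and 24 lower in Lysfree against Differentiated cells. Same-numbered libraries correlated between -0.085 and 0.115, and 7 of 18 library comparisons were highest for the own number.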
